A study of Mus musculus with 6 samples.

Results

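This report describes 39 genes of the type I interferon response in cultures of mouse CD4+ T cells, chosen by name as a list. Of the 39, 37 were measured among 19937 genes on the arrays. The only probe set of Isg15 also carries the symbol of another gene, and Ifi44 had no probe set named for it here, so neither has a value. The arrays compared were 2 from cells given antibody to CD3 together with antibody to ICOS and 4 from cells given antibody to CD3 alone. ICOS is a costimulatory receptor of activated T cells. All cells came from the spleen of B6 mice as naive CD4+ T cells, and all had earlier been stimulated for 2 days with antibodies to CD3 and CD28, then left to rest overnight. Antibody was bound for 20 min and cross-linked with goat antibody to hamster immunoglobulin for 8 h. Both groups therefore received the CD3 signal, and no unstimulated cells were part of the comparison. Each array is a biological replicate by its title. Whether the cultures came from different mice is not given, so a p-value here reflects only how much these cultures vary.

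Type I interferons are secreted proteins that bind a receptor made of IFNAR1 and IFNAR2. The receptor's kinases JAK1 and TYK2 phosphorylate STAT proteins, and STAT2 with IRF9 forms part of the complex that enters the nucleus and binds the interferon-stimulated response element of target promoters. The induced genes encode sensors of foreign RNA, enzymes and membrane proteins that block virus growth, and feedback regulators. T cells make little type I interferon themselves but respond to it, and interferon-gamma, which activated T cells do secrete, induces an overlapping set of genes.

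The response element was looked for in the promoters of the listed genes, since it is the sequence through which this family is known to be switched on. Windows from 250 bases before to 50 bases after the annotated start were taken from RefSeq (GRCm38.p6) and matched by symbol for 30 of the 39 genes. The motif searched was GAAA, then any 2 bases, then GAAA, on either strand, and overlapping matches were each counted. It was found for 15 of the 30 genes (50%), against 3.99% of the 27025 genes with a window. The motif of STAT dimers, TTC, then any 3 bases, then GAA, which reads the same on both strands, was found for 9 of the 30 genes (30%), against 9.55% of all. The motifs overlapped in 2 of the 36 windows of listed genes. Among the 28 genes with both a window and a measured value, 14 hold an exact match of the response element motif and 14 do not. The median difference between the groups was 0.50 for those with a match and 0.37 for those without. The ranges were 0.088 to 1.84 and -0.035 to 1.31 on the log2 scale. A match is a description of these letters and no proof of binding, and a window without an exact match was not shown to lack the element.

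The promoters below belong to 5 of the 6 genes of smallest p that have a window, 3 with a match of the response element motif and 2 without. They are shown because these genes differed most clearly between the groups, and matches of the response element on either strand are in capitals. Ifitm3 lies at chr7:141010695-141010994 on the minus strand, Stat2 at chr10:128270248-128270547 on the plus strand, Ifit1 at chr19:34640639-34640938 on the plus strand, Ifitm1 at chr7:140967826-140968125 on the plus strand and Oasl2 at chr5:114896684-114896983 on the plus strand. Ifitm3 holds 2 matches after its start, at positions 3 and 20, Ifit1 holds 2 that begin 104 and 85 bases before it, and Stat2 holds 1 that begins 222 bases before it.
Ifitm3: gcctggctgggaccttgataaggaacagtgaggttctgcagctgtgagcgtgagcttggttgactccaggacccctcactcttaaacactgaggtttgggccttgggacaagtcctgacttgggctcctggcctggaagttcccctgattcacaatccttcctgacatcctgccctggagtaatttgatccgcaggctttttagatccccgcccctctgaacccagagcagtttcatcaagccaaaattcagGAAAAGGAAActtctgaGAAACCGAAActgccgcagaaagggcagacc
Stat2: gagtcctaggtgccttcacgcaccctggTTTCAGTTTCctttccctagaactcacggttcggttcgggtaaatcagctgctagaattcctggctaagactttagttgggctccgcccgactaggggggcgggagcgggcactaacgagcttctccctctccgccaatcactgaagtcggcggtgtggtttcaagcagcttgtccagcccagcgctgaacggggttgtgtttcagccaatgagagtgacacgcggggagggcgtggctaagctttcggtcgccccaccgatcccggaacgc
Ifit1: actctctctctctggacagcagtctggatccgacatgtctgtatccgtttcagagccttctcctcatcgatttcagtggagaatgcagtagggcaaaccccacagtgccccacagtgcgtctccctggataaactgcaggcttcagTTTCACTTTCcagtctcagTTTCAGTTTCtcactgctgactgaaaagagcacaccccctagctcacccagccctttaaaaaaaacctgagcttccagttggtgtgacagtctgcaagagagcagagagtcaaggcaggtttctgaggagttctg
Ifitm1: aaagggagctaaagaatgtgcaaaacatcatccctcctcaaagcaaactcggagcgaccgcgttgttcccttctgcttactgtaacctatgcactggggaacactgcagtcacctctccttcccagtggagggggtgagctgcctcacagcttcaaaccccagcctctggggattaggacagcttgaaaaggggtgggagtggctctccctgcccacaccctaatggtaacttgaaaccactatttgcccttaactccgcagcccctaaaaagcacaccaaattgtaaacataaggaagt
Oasl2: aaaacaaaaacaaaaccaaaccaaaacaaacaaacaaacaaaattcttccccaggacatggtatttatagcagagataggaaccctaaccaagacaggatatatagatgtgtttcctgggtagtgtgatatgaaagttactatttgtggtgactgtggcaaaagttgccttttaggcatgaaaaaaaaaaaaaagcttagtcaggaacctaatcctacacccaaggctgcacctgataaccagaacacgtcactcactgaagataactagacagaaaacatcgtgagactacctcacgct

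Before the single genes, the arrays themselves were compared over the list. Values are log2(intensity + 16) of the brightest probe set of a gene, and an offset of 16 makes differences of dim genes smaller. With the average of anti-CD3 replicates 1, 2 and 3 as zero, the median of the 37 genes was 0.68 in anti-ICOS replicate 1, 0.40 in anti-ICOS replicate 2 and 0.18 in anti-CD3 replicate 4. It lay between -0.032 and 0.043 in anti-CD3 replicates 1 to 3. The anti-ICOS arrays thus differed from each other, and anti-CD3 replicate 4 lay above the rest of its group. The same medians over all 19937 genes were -0.047, -0.032 and -0.036. The median intensity of an array lay between 109 and 114, and the number of arrays limits the precision.

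With anti-ICOS, Ifitm3, an antiviral membrane protein gene, rose, and most other genes of the list lay higher without passing the test. Adjusted p-values are from limma across all genes with Benjamini-Hochberg adjustment and a threshold of 0.05, and each difference is the anti-ICOS group mean minus the anti-CD3 group mean. One of the 37 genes passed in the higher direction, where 0.271% of all genes did. In the lower direction 0 passed, where 0% of all genes did. At an unadjusted p under 0.05, 24 of the 37 were higher, against 6.24% of all genes, and 0 were lower, against 5.56%. The median difference was 0.46 over the list and -0.031 over all genes, and 35 of the 37 had a difference above 0, against 42.3% of all genes. In 20 of the 37 genes both anti-ICOS values exceeded every anti-CD3 value, against 8.51% of all genes, and in 0 did both lie below, against 14.7%. Of the 37 genes, 6 differed at least 2-fold, namely Ifitm3, Rtp4, Oasl2, Cxcl10, Ifit1 and Ifit3.

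**Figure D1:**
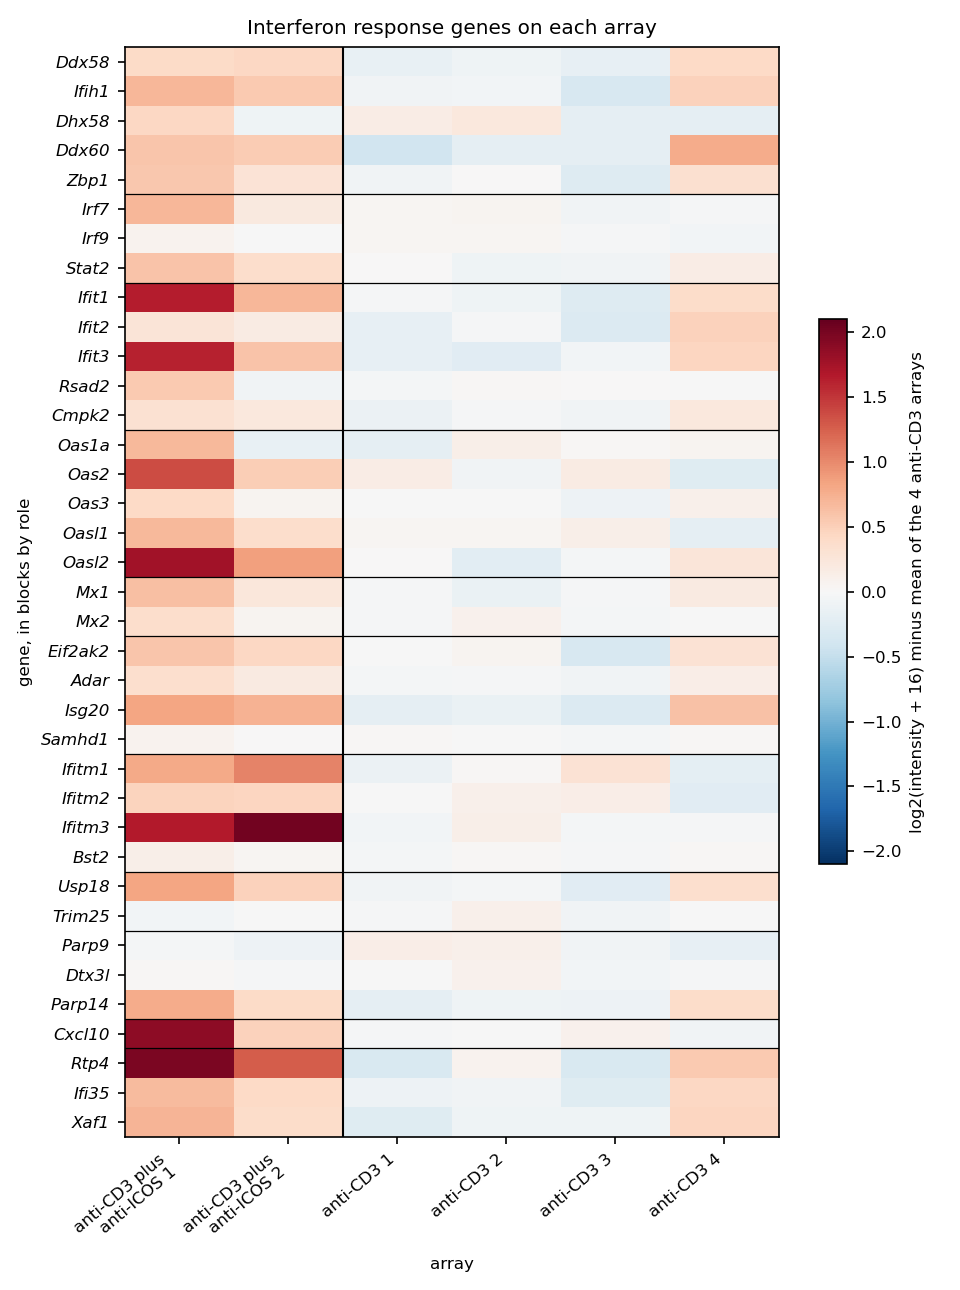
Each row is 1 of the 37 measured genes, in blocks by role, and each column 1 array. Colour gives log2(intensity + 16) less the mean of the 4 anti-CD3 arrays, red for higher. Ifit1, Ifit3, Oas2, Oasl2, Cxcl10 and Rtp4 are darkest in anti-ICOS replicate 1, Ifitm3 and Ifitm1 in anti-ICOS replicate 2, and Ddx58, Ddx60, Ifit2 and Isg20 are red in anti-CD3 replicate 4 as well.

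Single arrays moved these counts. Without anti-CD3 replicate 4, 26 of the 37 genes passed in the higher direction and 0 in the lower, against 17.1% and 12.7% of all genes. When replicate 4 stood alone for the anti-CD3 group, with replicates 1 to 3 kept just for the spread, 2 genes passed in the higher direction, Ifitm3 and Ifitm2, against 0.176% of all genes, and 0 in the lower, against 0%. The list's median difference was 0.54 without replicate 4 and 0.21 against replicate 4 alone. Without anti-ICOS replicate 2, Ifitm3, Oasl2 and Cxcl10 passed, 3 genes against 0.130% of all. That fit leaves 1 anti-ICOS array, so its spread comes from the anti-CD3 arrays alone, and the lone array is assumed to vary as they do. The gap between the anti-ICOS arrays, 0.89 for Oasl2 and 1.39 for Cxcl10, does not enter it. These fits share arrays, so they do not count as separate evidence. Anti-CD3 replicate 4 lay above replicates 1 to 3 in 22 of the 37 genes, against 34.5% of all genes, and nearer the anti-ICOS mean than the mean of replicates 1 to 3 in 17 (45.9%), against 78.1% of all genes. The fitted differences with and without this array are plotted gene by gene.

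**Figure D2:**
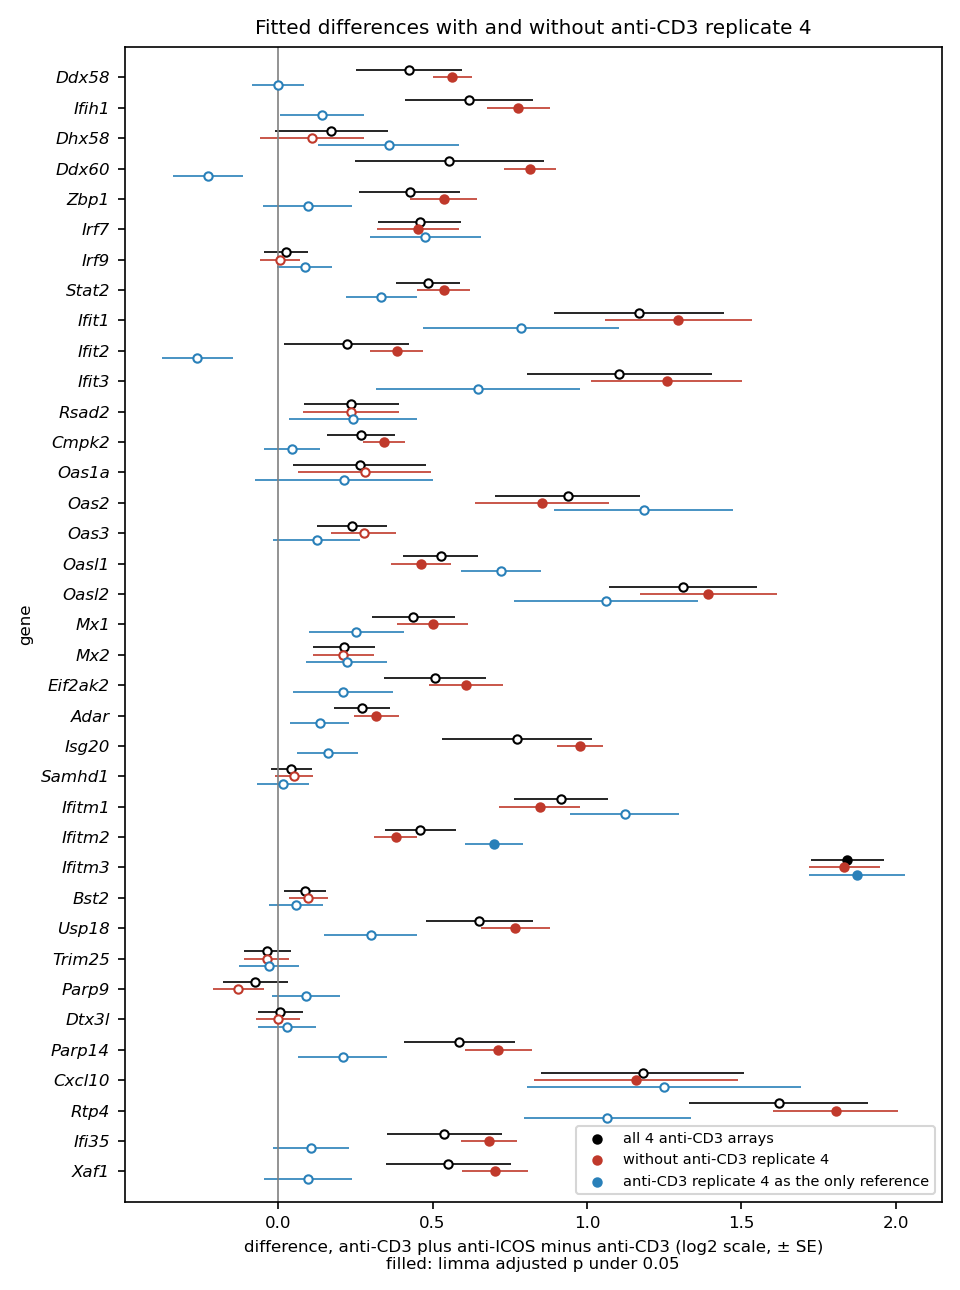
Points give the fitted difference of each gene on the log2 scale, anti-ICOS group minus anti-CD3 group, with its SE, from all arrays (black), without anti-CD3 replicate 4 (red) and with replicate 4 as the only reference (blue), and filled points have an adjusted p under 0.05. Ifitm3 is filled in each fit, 26 genes are filled without replicate 4, and the blue points of Ddx60 and Ifit2 lie below 0.

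At the median, anti-ICOS replicate 1 lay above replicate 2 in this list but not over all genes. Replicate 1 lay above replicate 2 in 33 of the 37 genes, against 44.5% of all genes, by a median of 0.24 over the list and -0.012 over all genes. The gap was at least 0.5 in 9 of the 37 genes, against 0.306% of all genes, and those 9 are among the 61 genes of all 19937 with so large a gap. They are Cxcl10, Ifit3, Ifit1, Oasl2, Oas2, Oas1a, Rtp4, Rsad2 and Dhx58. A gap of at least 0.5 the other way was found in 0 of the 37 genes, against 0.211% of all genes. With an offset of 1 or 64 the median gap of the list was 0.25 and 0.22.

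**Figure D3:**
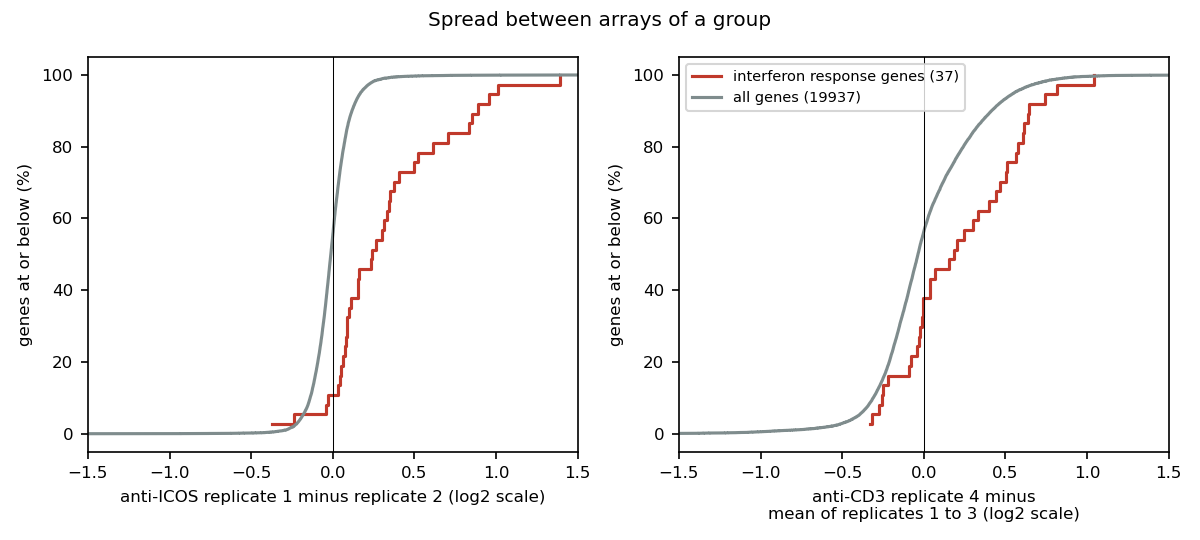
Cumulative curves show the share of genes (%) at or below a given log2 difference, for anti-ICOS replicate 1 minus replicate 2 (left) and for anti-CD3 replicate 4 minus the mean of replicates 1 to 3 (right), in the 37 listed genes (red) and all 19937 genes (grey). The red curve lies to the right of the grey one over most of its length in both panels, with list medians of 0.24 and 0.18 against -0.012 and -0.036.

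The IFITM proteins sit in membranes and block the entry of viruses into cells, and Ifitm1, Ifitm2 and Ifitm3 are neighbouring genes. Ifitm3 read 7.77 and 8.15 with anti-ICOS, against 6.05, 6.24, 6.08 and 6.08 with anti-CD3 alone. The groups were far apart, and the difference of 1.84 ± 0.12 (SE, limma adjusted p = 0.00232), or 3.59-fold, exceeded the spread between arrays. The group means were 7.96 ± 0.26 (SD, n = 2) with anti-ICOS and 6.12 ± 0.087 (SD, n = 4) with anti-CD3. It was the only listed gene past the threshold in every fit run, with adjusted p up to 0.0217 when any 1 array was left out.

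Ifitm1 read 8.22 and 8.46 with anti-ICOS, against 7.30, 7.45, 7.74 and 7.22 with anti-CD3. The groups did not overlap, and the difference of 0.92 ± 0.15 (SE) did not pass (adjusted p = 0.108). A second, dimmer probe set of Ifitm1 read 7.05 and 7.31 with anti-ICOS, against 6.02, 5.95, 6.11 and 5.97 with anti-CD3. Its difference of 1.16 ± 0.095 passed when every probe set was tested on its own (adjusted p = 0.00757), so the call of Ifitm1 depends on the probe set. Ifitm2 differed by 0.46 ± 0.12 (adjusted p = 0.337), and its other probe sets by 0.25 and 0.26. Against anti-CD3 replicate 4 alone Ifitm2 differed by 0.70 (adjusted p = 0.0475), since it read 9.02 there and 9.26 to 9.41 in the other anti-CD3 arrays. The coding sequences of these genes are similar, and probe sets may share signal. Bst2, which encodes tetherin, a protein that holds budding virus at the cell surface, differed by 0.088 ± 0.068 (adjusted p = 0.502). In contrast to most of the list, anti-ICOS replicate 2 was the higher of the pair for Ifitm3 and Ifitm1, and replicate 4 lay at or below the other anti-CD3 arrays for Ifitm1 and Ifitm2.

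IFIT proteins bind viral RNA and are among the first products of the response. Ifit1 read 8.51 and 7.55 with anti-ICOS, against 6.83, 6.77, 6.60 and 7.24 with anti-CD3. Ifit3 read 8.62 and 7.61 with anti-ICOS, against 6.84, 6.78, 6.95 and 7.47 with anti-CD3. In both genes anti-ICOS replicate 1 stood highest by about 1 log2 unit (gaps of 0.96 and 1.01), and replicate 4 was the highest anti-CD3 array. The differences were 1.17 ± 0.28 for Ifit1 and 1.11 ± 0.30 for Ifit3 (adjusted p = 0.301 and 0.388), and without replicate 4 they were 1.30 and 1.26 (adjusted p = 0.00666 and 0.00859).

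Ifit2, their neighbour, read 8.75 and 8.66 with anti-ICOS, against 8.31, 8.45, 8.20 and 8.97 with anti-CD3. Its highest value was that of anti-CD3 replicate 4, so the groups overlapped, with a difference of 0.22 ± 0.20 (adjusted p = 0.552) and -0.26 against replicate 4 alone. Ifit2 thus did not share the gap between the anti-ICOS arrays that Ifit1 and Ifit3 showed. Rsad2 encodes viperin, and the neighbouring Cmpk2 a nucleotide kinase. Rsad2 differed by 0.24 ± 0.15 and Cmpk2 by 0.27 ± 0.11 (adjusted p = 0.459 and 0.420). For Rsad2 anti-ICOS replicate 2, at 6.14, lay below all anti-CD3 arrays, and replicate 1 read 6.75.

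**Figure D4:**
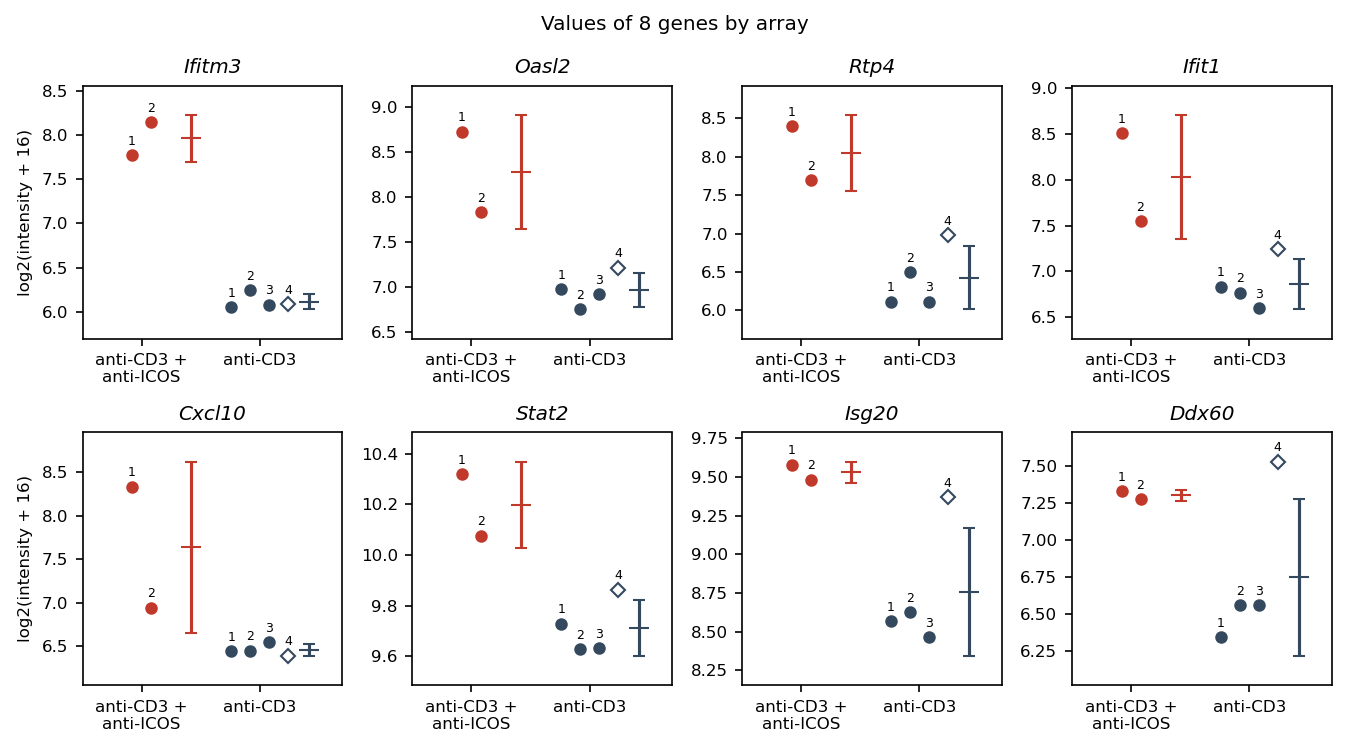
Points give log2(intensity + 16) on each array, labelled by replicate number, for 8 genes, with anti-CD3 plus anti-ICOS in red and anti-CD3 in dark blue, and bars beside them give mean ± SD (n = 2 and 4). Anti-CD3 replicate 4 is the open diamond. It lies with its group for Ifitm3 and Cxcl10, between the groups for Oasl2, Rtp4, Ifit1 and Stat2, close to the anti-ICOS arrays for Isg20 and above them for Ddx60.

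The oligoadenylate synthetases make the second messenger that activates RNase L, which degrades RNA. OASL proteins are related, and Oasl2 retains synthetase activity in mouse. Oasl2 read 8.73 and 7.84 with anti-ICOS, against 6.98, 6.76, 6.93 and 7.22 with anti-CD3. Oasl1 read 8.56 and 8.24 with anti-ICOS, against 7.91, 7.92, 7.99 and 7.68 with anti-CD3. Neither gene's groups overlapped. Oasl2 differed by 1.31 ± 0.24 (adjusted p = 0.144) and Oasl1 by 0.53 ± 0.12 (adjusted p = 0.286). Both passed without replicate 4 (adjusted p = 0.00377 and 0.0109). Without anti-ICOS replicate 2, Oasl2 differed by 1.76 (adjusted p = 0.0456), with the spread taken from the anti-CD3 arrays alone.

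Oas2 read 7.99 and 7.14 with anti-ICOS, against 6.78, 6.56, 6.79 and 6.38 with anti-CD3. It differed by 0.94 ± 0.23 (adjusted p = 0.337), and by 0.85 without replicate 4 (adjusted p = 0.0225). Replicate 4 was the lowest array for both Oas2 and Oasl1. Oas3 differed by 0.24 ± 0.11 and Oas1a by 0.26 ± 0.22 (adjusted p = 0.423 and 0.516), and neither passed without replicate 4. For Oas1a anti-ICOS replicate 1 lay above the anti-CD3 group and replicate 2 within it, at 7.76 and 6.93 against 6.89 to 7.20.

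The Mx proteins are GTPases that trap viral components. Mx1 read 6.99 and 6.59 with anti-ICOS, against 6.33, 6.22, 6.33 and 6.54 with anti-CD3. Mx2 read 5.66 and 5.36 with anti-ICOS, against 5.26, 5.38, 5.25 and 5.28 with anti-CD3. Both are dim here, and with Rsad2 they are the 3 listed genes among the dimmest 40% of all genes. The differences were 0.44 ± 0.13 for Mx1 and 0.21 ± 0.10 for Mx2 (adjusted p = 0.414 and 0.423). Mx1 passed without replicate 4 (adjusted p = 0.0156) and Mx2 did not (adjusted p = 0.137).

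Among sensors of foreign RNA and DNA, Ddx58 encodes RIG-I and Ifih1 encodes MDA5, which signal toward interferon production. Ifih1 read 8.77 and 8.62 with anti-ICOS, against 8.00, 8.01, 7.73 and 8.55 with anti-CD3. Ddx60, a helicase gene, read 7.33 and 7.28 with anti-ICOS, against 6.35, 6.56, 6.56 and 7.53 with anti-CD3. Zbp1, a sensor of Z-form nucleic acid that can trigger cell death, read 10.45 and 10.18 with anti-ICOS, against 9.82, 9.90, 9.62 and 10.22 with anti-CD3. In these genes anti-CD3 replicate 4 stood close to the anti-ICOS arrays, and for Ddx60 it was the highest of all. The differences were 0.62 ± 0.21 for Ifih1, 0.55 ± 0.31 for Ddx60 and 0.43 ± 0.16 for Zbp1 (adjusted p = 0.414, 0.430 and 0.417).

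Ddx58 showed a similar pattern, at 10.65 and 10.68 with anti-ICOS, against 10.08, 10.15, 10.08 and 10.67 with anti-CD3. Its difference was 0.42 ± 0.17 (adjusted p = 0.420) with all arrays and 0.56 without replicate 4 (adjusted p = 0.000790). Against replicate 4 alone, Ddx58 differed by -0.0010. Without replicate 4, 4 of the 5 sensor genes passed, where 17.1% of all genes were higher, with Ddx60 at 0.82 and Ifih1 at 0.78 (adjusted p = 0.000597 and 0.00161). The exception was Dhx58, which encodes LGP2, a regulator of the other RNA sensors, at 0.17 ± 0.18 with all arrays and 0.11 without replicate 4 (adjusted p = 0.606 and 0.641).

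Of the transcription factors, Irf7 amplifies the response and Stat2 and Irf9 carry the signal from the receptor. Stat2 read 10.32 and 10.08 with anti-ICOS, against 9.73, 9.63, 9.63 and 9.86 with anti-CD3. Irf7 read 9.26 and 8.77 with anti-ICOS, against 8.59, 8.61, 8.49 and 8.54 with anti-CD3. The groups did not overlap for either gene. Stat2 differed by 0.49 ± 0.10 and Irf7 by 0.46 ± 0.13 (adjusted p = 0.231 and 0.414), and both passed without replicate 4 (adjusted p = 0.00391 and 0.0379). Irf9, in contrast, read 10.43 and 10.34 with anti-ICOS and 10.30 to 10.41 with anti-CD3, a difference of 0.025 ± 0.072 (adjusted p = 0.851).

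Several effectors act on RNA or nucleotides. Isg20, an exonuclease gene, read 9.58 and 9.48 with anti-ICOS, against 8.57, 8.62, 8.46 and 9.37 with anti-CD3. Eif2ak2, which encodes PKR, a kinase that stops translation when it binds double-stranded RNA, read 8.58 and 8.43 with anti-ICOS, against 7.99, 8.05, 7.66 and 8.30 with anti-CD3. Replicate 4 was the highest anti-CD3 array in both. Isg20 differed by 0.77 ± 0.24 and Eif2ak2 by 0.51 ± 0.16 (adjusted p = 0.414 for each), and without replicate 4 by 0.98 and 0.61 (adjusted p = 0.000169 and 0.00887). Adar, the gene of an RNA-editing enzyme, differed by 0.27 ± 0.090 (adjusted p = 0.414) and passed without replicate 4 (adjusted p = 0.0146). Samhd1, which encodes an enzyme that breaks down nucleotides needed for virus replication, differed by 0.042 ± 0.066 (adjusted p = 0.724) and read 12.89 to 13.01 on all arrays.

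In the ISG15 system, Usp18 encodes the protease that removes ISG15 and also restrains the interferon receptor. Usp18 read 9.40 and 9.05 with anti-ICOS, against 8.50, 8.53, 8.33 and 8.93 with anti-CD3. It differed by 0.65 ± 0.17 (adjusted p = 0.382), and by 0.77 without replicate 4 (adjusted p = 0.00258). The groups did not overlap, although replicate 4 came close to anti-ICOS replicate 2. Trim25, a ligase gene that modifies RIG-I, read 10.06 and 10.10 with anti-ICOS, against 10.09, 10.22, 10.04 and 10.11 with anti-CD3. Its groups overlapped fully, with a difference of -0.035 ± 0.075 (adjusted p = 0.801).

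PARP9 and DTX3L act as a pair in ubiquitin and ADP-ribose signalling, and their genes are neighbours. Parp9 read 9.43 and 9.36 with anti-ICOS, against 9.61, 9.57, 9.39 and 9.31 with anti-CD3. Dtx3l lay between 10.79 and 10.94 on all arrays. The groups overlapped for both genes, with differences of -0.074 ± 0.10 for Parp9 and 0.0064 ± 0.073 for Dtx3l (adjusted p = 0.693 and 0.965). Parp14, an ADP-ribosyltransferase gene, read 10.51 and 10.14 with anti-ICOS, against 9.55, 9.64, 9.64 and 10.12 with anti-CD3. It differed by 0.59 ± 0.18 (adjusted p = 0.414), and by 0.71 without replicate 4 (adjusted p = 0.00303).

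Cxcl10, the chemokine that attracts cells bearing CXCR3, read 8.33 and 6.94 with anti-ICOS, against 6.44, 6.45, 6.55 and 6.39 with anti-CD3. The anti-ICOS arrays differed by 1.39, the largest gap in the list, while the anti-CD3 arrays lay close together, replicate 4 included. Cxcl10 differed by 1.18 ± 0.33 (adjusted p = 0.399), and it passed without replicate 4 (adjusted p = 0.0338). Without anti-ICOS replicate 2 it differed by 1.88 (adjusted p = 0.0141), with the spread taken from the anti-CD3 arrays alone. The chaperone gene Rtp4 read 8.40 and 7.69 with anti-ICOS, against 6.11, 6.50, 6.11 and 6.98 with anti-CD3. It had the second largest difference of the list, 1.62 ± 0.29 (adjusted p = 0.136), and differed by 1.81 without replicate 4 (adjusted p = 0.000831). Ifi35 read 9.84 and 9.60 with anti-ICOS, against 9.07, 9.11, 8.94 and 9.62 with anti-CD3, and differed by 0.54 ± 0.19 (adjusted p = 0.416). Xaf1, the gene of a factor that promotes apoptosis, differed by 0.55 ± 0.20 (adjusted p = 0.417). In Ifi35 and Xaf1 replicate 4 reached the lower anti-ICOS array, and both passed without it (adjusted p = 0.00181 and 0.00303).

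The genes therefore fell into patterns that differ in where anti-CD3 replicate 4 lay, given here as a description made after the values were seen. In 28 of the 37 genes both anti-ICOS arrays lay above anti-CD3 replicates 1 to 3, against 28.5% of all genes. In 8 of the 37 (21.6%) replicate 4 reached an anti-ICOS array (Ddx58, Ddx60, Zbp1, Ifit2, Cmpk2, Oas3, Ifi35 and Xaf1), against 20.0% of all genes. In 13 (35.1%) it lay above replicates 1 to 3 but below both anti-ICOS arrays (Ifih1, Stat2, Ifit1, Ifit3, Oasl2, Mx1, Eif2ak2, Adar, Isg20, Bst2, Usp18, Parp14 and Rtp4), against 5.9% of all genes. In 7 (18.9%) it lay within or below replicates 1 to 3 (Irf7, Oas2, Oasl1, Ifitm1, Ifitm2, Ifitm3 and Cxcl10), against 2.6% of all genes. The remaining 9 genes were Dhx58, Irf9, Rsad2, Oas1a, Mx2, Samhd1, Trim25, Parp9 and Dtx3l, with a median difference of 0.042.

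Other genes of the pathway were read from lists chosen by name, 100 measured of 116. With all arrays 1 of the 100 rose, against 0.271% of all genes, and 0 fell. At an unadjusted p under 0.05, 28 were higher and 0 lower, against 6.24% and 5.56% of all genes. Without replicate 4, 39 were higher and 5 lower, against 17.1% and 12.7% of all genes. Of 13 measured type I interferon ligand genes 0 passed in limma with all arrays (0 also at an unadjusted p under 0.05). Of the 13, 12 had differences below 0, where 42.3% of all genes had differences above 0. The ligand median was -0.092, against -0.031 over all genes. Against replicate 4 alone the ligand median was 0.025, so the direction depends on this array. Ifna5, Ifnab and Ifna11, those of smallest p, differed by -0.37, -0.16 and -0.13 (adjusted p = 0.422, 0.424 and 0.470), and Ifna5 was lower without replicate 4 (adjusted p = 0.0210). Ifnb1 read 5.84 and 5.86 with anti-ICOS, against 5.99, 6.03, 5.98 and 5.80 with anti-CD3. Transcripts of the ligands were therefore not detectably higher with anti-ICOS at 8 h, and detection calls for such dim probe sets were not used here.

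Of 5 genes of the receptor and its signal chain 0 passed in limma. At an unadjusted p under 0.05, 1 was higher, against 6.24% of all genes. The kinase gene Tyk2 differed by 0.36 ± 0.11, Stat3 by 0.17 ± 0.080 and the receptor gene Ifnar1 by -0.036 ± 0.070 (adjusted p = 0.414, 0.423 and 0.776). Tyk2 passed without replicate 4 (adjusted p = 0.00215). Ifng, the gene of interferon-gamma, read 8.76 and 8.37 with anti-ICOS, against 6.84, 7.05, 6.81 and 8.02 with anti-CD3. Like most listed genes it was highest in anti-ICOS replicate 1, and replicate 4 lay between the anti-ICOS arrays and the rest. Among the 6 genes of type II and type III interferons and receptors 0 passed. At an unadjusted p under 0.05, 1 was higher, against the same 6.24% of all genes. Ifng differed by 1.39 ± 0.34, Ifngr2 by 0.14 ± 0.077 and Ifnl2 by -0.32 ± 0.16 (adjusted p = 0.327, 0.429 and 0.423). Without replicate 4 Ifng differed by 1.67 and Ifnl2 by -0.44 (adjusted p = 0.000163 and 0.00836).

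Of 15 genes that act upstream of interferon production 0 passed with all arrays. At an unadjusted p under 0.05, 5 were higher, against 6.24% of all genes. Without replicate 4, 7 were higher and 1 lower, against 17.1% and 12.7% of all genes. The transcription factor genes Irf5 and Irf8 differed by 0.46 ± 0.093 and 0.53 ± 0.17, and the DNA sensor gene Tlr9 by 0.28 ± 0.099 (adjusted p = 0.185, 0.414 and 0.417), and these passed without replicate 4 (adjusted p = 0.00139, 0.000484 and 0.00550). Among 51 further interferon-induced genes, Ube2l6, which encodes the conjugating enzyme of ISG15, rose by 0.67 ± 0.087 (adjusted p = 0.0465). Ube2l6 read 8.32 and 8.07 with anti-ICOS, against 7.57, 7.50, 7.55 and 7.50 with anti-CD3. That call was lost when either anti-ICOS array or anti-CD3 replicate 1, 2 or 3 was left out (adjusted p from 0.102 to 0.351), and against replicate 4 alone (adjusted p = 0.109). The median difference of those 51 genes was 0.15, below the 0.46 of the listed genes, and 26 were higher and 2 lower without replicate 4, against the same 17.1% and 12.7% of all genes. Of 10 inhibitors of interferon signalling 0 passed. At an unadjusted p under 0.05, 4 were higher, against 6.24% of all genes. Cish differed by 1.23 ± 0.19, Socs1 by 0.85 ± 0.17 and Socs3 by 0.45 ± 0.14 (adjusted p = 0.0884, 0.185 and 0.414). These passed without replicate 4 (adjusted p = 9.88e-05, 0.000209 and 0.000928).

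T cell markers were present on all arrays, with Cd4 at 11.95 and 12.00 with anti-ICOS and 12.05 to 12.45 with anti-CD3. Some markers of other cells were as bright. The B cell gene Cd79b read 12.58 and 12.70 with anti-ICOS and 12.31 to 12.66 with anti-CD3. H2-Aa read 12.60 and 12.75 with anti-ICOS and 12.49 to 12.63 with anti-CD3. The share of each cell type in the RNA was not measured. Marker lists of other cell types also moved with the groups, and their part in the interferon values was not tested. Summed intensities of 10 monocyte and macrophage markers were 1413 and 2127 with anti-ICOS, against 924 to 1379 with anti-CD3, of which 1379 was replicate 4. Those of 8 neutrophil markers were 602 and 1418 with anti-ICOS, against 450 to 566 with anti-CD3, and those of 8 mast cell and basophil markers were 603 and 804, against 410 to 472. In these lists anti-ICOS replicate 2 was the higher array, whereas replicate 1 was the higher one in most interferon genes. Ifitm3, the only listed gene that passed with all arrays, was an exception, and replicate 2 was its higher array. Replicate 1 minus replicate 2 was -0.37 for Ifitm3 and -0.24 for Ifitm1. It was -0.040 for Trim25 and -0.028 for Ddx58. Whether other cells contributed to the Ifitm3 and Ifitm1 values was not tested. Both anti-ICOS values exceeded every anti-CD3 value for 4 of 10 monocyte, 4 of 8 neutrophil and 5 of 8 mast cell genes, against 8.51% of all genes. The same held for 4 of 8 plasmacytoid and 4 of 11 conventional dendritic cell genes and 2 of 8 NK cell genes, and for 0 of 7 B cell and 0 of 9 T cell genes. In the monocyte list Lyz2 and Adgre1 had the largest differences, 1.89 and 1.34. Anti-CD3 replicate 4 read 8.53 and 8.10 for them, against 6.70 to 6.77 and 6.18 to 6.27 in replicates 1 to 3. Of the 10 monocyte genes 8 had differences above 0, while Fcgr1 and C1qa differed by -0.10 and -0.064. Not all neutrophil genes lay higher. The 4 above were Mpo, Elane, Ngp and S100a8, while Camp, Ly6g, Ltf and S100a9 differed by -0.20, -0.12, -0.043 and 0.0029.

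The 8 plasmacytoid dendritic cell markers, a cell type known for making type I interferon, summed to 3047 and 3340 with anti-ICOS, against 2536 to 2872 with anti-CD3. Ly6d, the brightest of the 8, weighs most in these sums, and its groups overlapped. It read 10.08 and 10.36 with anti-ICOS, against 10.14, 10.28, 10.11 and 9.77 with anti-CD3. Replicate 4, with the lowest Ly6d value, had the lowest sum. The chemokine receptor gene Ccr9, also made by T cells, read 8.35 and 8.35 with anti-ICOS, against 7.11, 6.93, 6.84 and 7.07 with anti-CD3, and passed the test (1.37 ± 0.095, adjusted p = 0.00321). Siglech read 7.20 and 6.99 with anti-ICOS, against 6.55, 6.55, 6.60 and 6.54 with anti-CD3, a difference of 0.53 ± 0.080 (adjusted p = 0.0746), which passed without replicate 4 (adjusted p = 0.00264). Not all genes of that list lay higher, with differences of -0.16 for Pacsin1, -0.11 for Cox6a2 and 0.013 for Clec4b1. Conventional dendritic cell markers summed to 18186 and 19922 with anti-ICOS, against 16474 to 17847 with anti-CD3, and Flt3 passed (1.26 ± 0.087, adjusted p = 0.00321). It was 1 of 11, of which 10 had differences above 0, with a median of 0.11. H2-Aa, H2-Ab1 and H2-Eb1, the brightest of them, differed by 0.11, 0.11 and 0.13. Clec10a, Cd209a and Clec9a differed by 0.0088, 0.062 and 0.078, and Xcr1 by -0.19, below every anti-CD3 array. B cell markers summed to 18040 and 19889 with anti-ICOS, against 16442 to 19860 with anti-CD3, and NK cell markers to 4972 and 5070, against 4153 to 5165. The 9 T cell markers summed to 32322 and 33788 with anti-ICOS, against 34563 to 38191 with anti-CD3, so their sum was lower on both anti-ICOS arrays. Both anti-ICOS values lay below every anti-CD3 value for 4 of the 9, against 14.7% of all genes. Cd2 and Lat differed by 0.054 and 0.0093, and 0 of the 9 passed. None of these intensities was at 0. In RNA from whole cultures, fewer cells of a type and less RNA per cell cannot be told apart.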

How the data were processed

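RNA was hybridised to 6 Affymetrix Mouse Gene ST arrays. The authors deposited linear intensities, 1 per probe set and array. The submitters' processing notes name MAS5 and no other tool, and for background correction, summary and centring the method is not given in the sources used here. A shift of most genes at once could not be seen if the authors had equalised the arrays.

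The 34760 probe sets divide into 21640 with 1 symbol, 1321 with several and 11799 unnamed here. The brightest probe set stood for each of 19937 genes (954 had several), as log2(intensity + 16), with no filter. Groups came from the titles. The test was that of limma 3.58.1 under R 4.3.3 (4 residual degrees of freedom), with two-sided p-values adjusted by Benjamini-Hochberg across all genes. The fit was tested on simulated data. Members, lists and rules were chosen with earlier results of these data known. Values on every array are given for genes past the threshold, the 2 of smallest p per role and those with the largest gaps between arrays. For pathway lists the called genes, or the 3 of smallest p, are named, and Ifnb1, Siglech, Ccr9 and Flt3 were added after values were seen. Alternatives were offsets of 1 and 64, array weights, a robust trended prior, quantile or median scaling, leaving out the dimmest 40% of genes, averaging probe sets or testing each, a replicate block, each array left out and replicate 4 as the only reference. Promoters are from RefSeq. Plots used matplotlib 3.10.9 in Python 3.11.15.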

Additional observations from a re-analysis of the deposited data

Results flagged for a closer look

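Dixon's ratio divides the gap between an extreme array and its nearest neighbour by the whole range of its group, here the anti-CD3 group of 4. Chance takes it past the 95% limit in about 1 of 20 groups. It was past the limit for 3 of the 37 listed genes. The ratio was 0.888 for Ddx58 and 0.837 for Parp14, with anti-CD3 replicate 4 on the side of the anti-ICOS arrays, and 0.832 for Ifitm3, with replicate 2 at 6.24 against 6.05 to 6.08 in the others. Among the 16 named pathway genes it was so for Tyk2 (0.929) and Cish (0.847), both by replicate 4. Over all 19937 genes some anti-CD3 array was apart in 1732 and replicate 4 in 1197. The shares in the list, 3 of 37 for any array and 2 of 37 for replicate 4, were close to these.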

How the results depend on the processing

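Ifitm3 stayed past the threshold in all 17 alternatives. The count of listed genes past it was 1 with all arrays, 29 with array weights (28 higher, against 22.8% of all genes), 26 with the replicate block (25 higher, against 17%) and 26 without anti-CD3 replicate 4. Array weighting gave anti-CD3 replicate 4 a weight of 0.15, against 4.53 for replicate 1. In the block fit, anti-CD3 replicates 3 and 4 had no anti-ICOS array of the same number, so they did not enter the difference. These fits thus gave replicate 4 little or no part, and they do not count as separate evidence. The count was 2 with the mean of probe sets and 2 with replicate 4 as the only reference. Leaving out 1 array in turn gave 1 to 26. Deviations of same-numbered arrays from their group means correlated at -0.039 and 0.10. With 2 anti-ICOS arrays, their deviations mirror each other, so these values cannot decide whether the numbers pair the arrays. The count of pathway genes was 57 with array weights (44 higher, against 22.8% of all genes) and 42 with the replicate block (37 higher, against 17%), and 0 with quantile normalization, median centring, the trended and robust prior, every probe set, an offset of 64 or replicate 4 as the only reference. Leaving out 1 array gave 0 to 44. The list's median difference lay between 0.21 and 0.61 in all alternatives. The median of replicate 4 less replicates 1 to 3 was 0.12 with quantile normalization, against 0.18. Against replicate 4 alone the direction turned for Ddx58 (-0.0010), Ddx60 (-0.23), Ifit2 (-0.26) and Parp9 (0.091). It did so too for Ifna11 (0.025), Ifnl2 (0.046) and Ifnb1 (0.052). Over the fits that leave out 1 array, Dhx58 ranged from -0.090 to 0.43, Irf9 from -0.016 to 0.067, Rsad2 from -0.069 to 0.54, Oas1a from -0.15 to 0.68 and Dtx3l from -0.017 to 0.037, each lowest without anti-ICOS replicate 1. With the block it did for Dhx58 (-0.017), Irf9 (-0.019) and Dtx3l (-0.033), and with quantile normalization for Irf9 (-0.020) and Bst2 (-0.020). Irf9 was at -0.011 with array weights, and Dtx3l at -0.012 without anti-CD3 replicate 3 and -0.0010 without replicate 4. The cause was not tested. With 2 anti-ICOS arrays that differ in this list, the size of most differences is poorly fixed, and detection calls were not used here.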
